A study of Drosophila melanogaster with 2 samples.

Results

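The 10 genes described here are the gap genes hb, Kr, gt and kni and the pair-rule genes h, run, prd, odd, slp1 and slp2, chosen by name from 13968 protein-coding genes on the chromosome arms of Drosophila melanogaster. The factor mapped is aop (anterior open, also called Yan), an ETS-domain repressor that is switched off by receptor tyrosine kinase signalling. A transgenic strain carrying aop fused to eGFP was collected at 0 to 24 h as whole embryos, and its chromatin was precipitated with an antibody against GFP and sequenced (ChIP-seq). Whole embryos mix all tissues and stages, so a site bound in few cells and one bound weakly in many cannot be told apart. Both libraries belong to 1 group of 2 biological replicates, so all genes share 1 genotype and age window and no condition was compared. Whether the 2 replicates' differences are technical was not tested. Peaks and ranked candidates were given by their summit to a gene when the summit lay in the gene body or when the gene had the nearest protein-coding transcription start site (TSS).

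Gap genes and pair-rule genes are successive tiers of the cascade that divides the fly blastoderm along its head-to-tail axis. Gap genes are expressed in broad domains set by maternal gradients, and pair-rule genes turn those domains into stripes in alternate segments. Both tiers consist of transcription factors, and most members are expressed again later, for example in the nervous system, which an age window covering embryogenesis includes.

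The authors' list of peaks from both replicates together held 1725 peaks, of which 1692 lay on the chromosome arms, and it came from a ranked list of 147076 candidates. Candidates had been scored by the irreproducible discovery rate (IDR) procedure, whose whole-number score reaches 1000 and was at least 830 in every peak kept. Replicate 1 alone gave 628 peaks from 93043 candidates and replicate 2 alone gave 1142 from 113872. A further, conservative list from both replicates held 1473. Signal is the value that the authors gave each candidate. Its scaling is not stated, so it is given beside its rank or its share from the top for the sites of the 10 genes, and signals of different lists are not compared. Read depth is unknown, and control libraries were not analysed here.

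In the list of both replicates 2 of the 10 genes had 1 peak each, slp2 and h, where 10.4% of all protein-coding genes had at least 1. None of the 4 gap genes was among them, against 2 of the 6 pair-rule genes. The conservative list named 3 of the 10, slp2, h and odd (9.22% of all genes), the list of replicate 1 named slp2 alone (4.35%) and that of replicate 2 named slp2 and h (7.45%). In any of these 4 lists 3 of the 10 genes had a peak, against 11.9% of all genes. The site of slp2 was the same in all lists, whereas the place bound at h changed with the list. With 10 genes chosen by name and results of these data known, these counts are descriptions and were not tested.

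**Figure D1:**
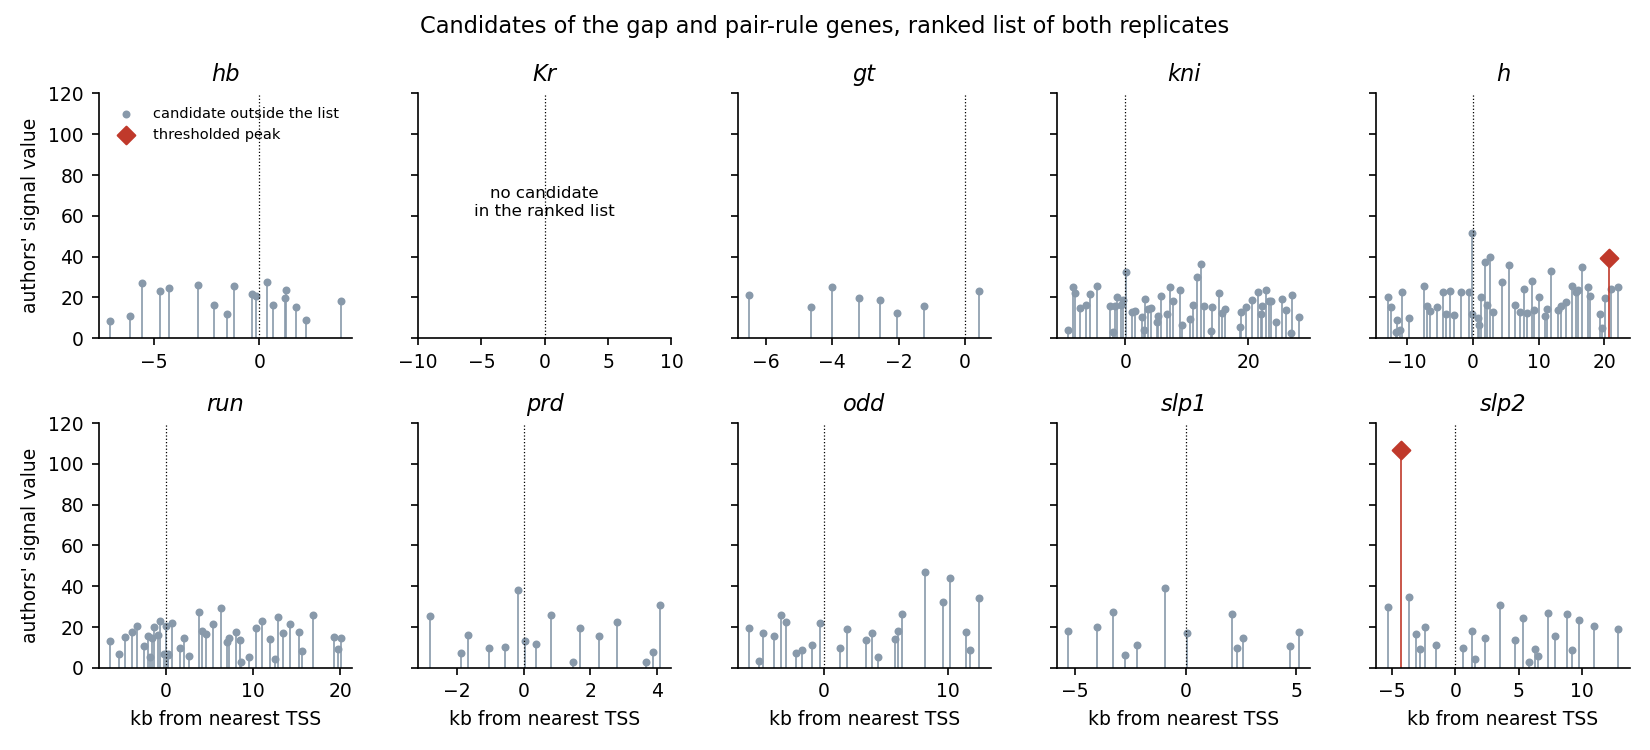
All candidates of each gene in the ranked list of both replicates, by distance of the summit from the gene's nearest TSS in kb (negative is upstream) and by the authors' signal value. Red diamonds are the thresholded peaks, 1 at slp2 with signal 107 and 1 at h with 39.5, and grey points are candidates outside the list, while Kr had no candidate.

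The strongest site belonged to slp2. This gene and its neighbour slp1 are the sloppy paired genes, which encode forkhead-domain transcription factors. The peak lay between these genes (chr2L:3832400-3832655, dm6), 4312 bp upstream of the slp2 TSS and 5.43 kb beyond the 3' end of slp1, in sequence with no annotated gene. Its signal was 107 in the list of both replicates, rank 298 of 1725 peaks, with the highest score, 1000. Replicate 1 gave 37.8 (rank 482 of its candidates) and replicate 2 gave 68.4 (rank 290), each with a score of 1000. The site was thus in the top 0.518% of candidates in replicate 1 and the top 0.255% in replicate 2. Of all protein-coding genes 314 had a stronger best candidate than slp2 in the ranked list of both replicates.

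The sequence under this peak is shown because it holds a repeated promoter-type element. Capitals mark GGTCACACT, the core of the sequence called Motif 1, a core-promoter element of the fly that is recognised by the zinc-finger protein M1BP.
slp2 peak, plus strand: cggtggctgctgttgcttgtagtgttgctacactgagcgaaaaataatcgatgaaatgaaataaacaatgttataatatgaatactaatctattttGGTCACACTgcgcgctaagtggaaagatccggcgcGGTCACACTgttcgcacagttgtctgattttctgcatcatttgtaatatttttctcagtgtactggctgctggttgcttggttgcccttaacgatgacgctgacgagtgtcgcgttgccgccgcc
The letters GGTCACACT occurred at chr2L:3832496-3832504 and chr2L:3832531-3832539, 28 and 7 bp from the summit. This motif was searched after the sequence had been read. Within 100 bp of the summit on either strand it was found in 22 of 1692 peaks (1.30%), in 0.255% of 143365 candidates outside the list, and in 0 of 252 such candidates at the 10 segmentation genes. Of those 22 peaks 21 lay within 500 bp of a protein-coding TSS (95.5%, against 47.5% of the 1670 peaks without the motif), and the slp2 peak was the other 1. It was also the only 1 of the 1692 windows with 2 copies. No ETS core, CGGAA on either strand, was found in this peak.

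The partner gene slp1 had no peak in any list. Its strongest candidate (chr2L:3824624-3824879) lay 923 bp upstream of the TSS, with a signal of 39.0, rank 3871 and a score of 225. Replicate 1 gave 14.7 there (rank 13168) and replicate 2 gave 25.4 (rank 3844). The site was thus in the top 14.2% of candidates in replicate 1 and the top 3.38% in replicate 2. Assignment by the nearest TSS gave the intergenic peak to slp2, and the lists hold no value that ties it to slp1 or slp2.

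The gene h (hairy, hry in the annotation used) encodes a bHLH repressor that recruits the corepressor Groucho. Its gene body spans 3L 8675759 to 8679253 and has 2 TSSs. The peak in the list of both replicates (chr3L:8696523-8696778) lay 20696 bp downstream of the second TSS, with no annotated gene at the summit. It was 17.4 kb beyond the end of the gene. Its signal was 39.5, rank 1678 of 1725 peaks, and its score was 878. Replicate 1 gave 21.8 there (rank 2381, score 89) and replicate 2 gave 21.6 (rank 7269, score 320). These ranks are the top 2.56% and 6.38% of candidates. The site was in neither replicate's own list nor in the conservative list, where its score was 691.

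The promoter of h was treated the other way by the lists. A candidate centred 84 bp upstream of the first TSS (chr3L:8675547-8675802) had a higher signal of 51.6, rank 1598 of 147076. Its score was 721, below the 830 that the kept peaks reached. It stood in the conservative list with a score of 865 and in the list of replicate 2 with a signal of 41.9, rank 878 and a score of 1000. That is the top 0.771% of candidates in replicate 2. Replicate 1 had no candidate centred at this site, but it had 1 at the second TSS of h. That candidate (3L 8675765 to 8676004, signal 18.6, rank 4784) was centred 0.07 kb upstream of the second TSS. It overlapped the site by only 38 bp. It lay within a neighbouring candidate of the ranked list of both replicates (3L 8675759 to 8676014), which had a signal of 11.7 and rank 102537. The score and not the signal decided the side of the threshold. The distal h site was just inside at 878. Just outside were the h promoter (721) and a second odd candidate (717), both with a higher signal than the distal site, and the prd promoter (701).

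Both h sites are shown, since they fell on different sides of the threshold and hold different motifs. Capitals mark the ETS core CGGAA in the distal peak and CAGGTAG, the site of the early activator Zelda, at the promoter, where bases of the transcript are left out.
h distal peak, plus strand: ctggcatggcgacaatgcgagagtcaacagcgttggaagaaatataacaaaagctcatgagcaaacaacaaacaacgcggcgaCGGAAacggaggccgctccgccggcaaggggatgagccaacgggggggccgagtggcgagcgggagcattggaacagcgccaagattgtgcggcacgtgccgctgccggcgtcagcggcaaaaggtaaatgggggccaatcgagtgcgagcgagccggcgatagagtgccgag
h promoter (chr3L:8675547-8675758), plus strand: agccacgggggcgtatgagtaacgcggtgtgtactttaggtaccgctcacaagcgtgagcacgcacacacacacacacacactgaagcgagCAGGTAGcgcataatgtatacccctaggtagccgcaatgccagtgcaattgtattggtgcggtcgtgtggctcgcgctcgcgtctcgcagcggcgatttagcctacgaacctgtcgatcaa
The ETS core stood at chr3L:8696606-8696610, 43 bp from the summit, and the Zelda sequence at chr3L:8675638-8675644, 34 bp from it. The GC content was 61.3% over the distal peak and 56.6% over the promoter stretch, against a median of 40.8% in 201 bp windows around all peaks. The ETS core is short, and 31.0% of all peak windows and 30.4% of the windows of candidates outside the list held it.

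The gene odd (odd skipped), a zinc-finger repressor, came next. Its strongest candidate (chr2L:3598518-3598773) lay 8110 bp downstream of the TSS in intergenic sequence, with a signal of 46.9, rank 2097 and a score of 552. The conservative list held it with a score of 912. Replicate 1 gave 22.9 (rank 1908) and replicate 2 gave 28.7 (rank 2453), and neither replicate's own list held it. These are the top 2.05% and 2.15% of candidates, so its place in the 2 rankings was close. A second candidate 10.178 kb downstream had a signal of 44.0 and the score of 717. The sequence of the stronger site is shown because odd is the only member named by the conservative list alone. It has no capitals, since it holds no ETS core, no Zelda sequence and no Motif 1 core.
odd candidate, plus strand: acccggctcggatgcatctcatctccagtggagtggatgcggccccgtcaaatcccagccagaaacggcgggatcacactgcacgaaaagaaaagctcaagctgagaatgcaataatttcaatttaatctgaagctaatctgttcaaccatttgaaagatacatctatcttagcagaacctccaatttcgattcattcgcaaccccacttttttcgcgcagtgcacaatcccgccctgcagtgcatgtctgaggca

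**Figure D2:**
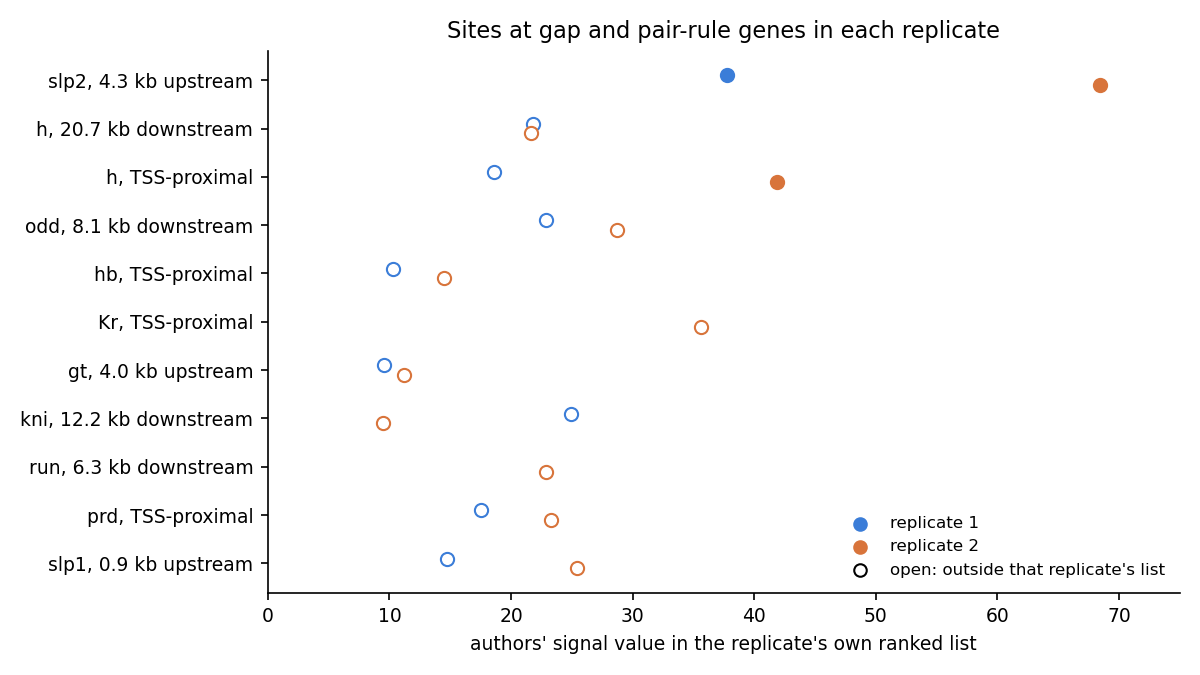
The authors' signal value in each replicate's own ranked list at the sites described, with 1 row per site named by its gene and its distance from the TSS. Filled points were in that replicate's thresholded list, which holds for slp2 in both replicates and for the h promoter in replicate 2, while Kr and run had no overlapping candidate in replicate 1 and the replicate 1 point of the h promoter is a neighbouring candidate that overlaps it by 38 bp.

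The remaining pair-rule genes had promoter or downstream candidates of moderate rank. The gene prd encodes a protein with a paired domain and a homeodomain. Its strongest candidate lay 167 bp upstream of a TSS with a signal of 38.2, rank 4246. Replicate 1 gave 17.5 there (rank 6229) and replicate 2 gave 23.3 (rank 5282). At run, the founding Runt-domain gene, the strongest candidate lay 6339 bp downstream of a TSS with a signal of 29.5, rank 12688 and a score of 238. Replicate 2 gave 22.9 there (rank 5645), and replicate 1 had no candidate that overlapped it.

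The gap genes stood lower in the ranked list of both replicates, with a median percentile among all genes of 39.4 against 83.6 for the pair-rule genes. That median counts Kr, which had no candidate, at 3.17, beside 34.8 for gt, 44.1 for hb and 74.3 for kni, and in replicate 2 Kr stood at 91.7. In the replicates' own lists the medians were closer, 73.1 against 77.7 in replicate 1 and 73.1 against 82.9 in replicate 2. The gene kni encodes a factor with a nuclear-receptor zinc finger. The strongest of its 55 candidates lay 12246 bp downstream of a TSS with a signal of 36.4, rank 5093 and a score of 319. Replicate 1 gave 24.9 there (rank 1395), and replicate 2 gave 9.46 (rank 70416). The site was in the top 1.5% of candidates in replicate 1 and only in the top 61.8% in replicate 2. In replicate 2 the strongest kni candidate was instead 0.048 kb from a TSS, with 24.5 (rank 4378).

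At hb (hunchback, a zinc-finger gene) the strongest candidate lay 377 bp downstream of a TSS, with 27.6 in the ranked list of both replicates (rank 16738, score 116). Replicate 1 gave 10.3 there, the top 41.7% of its candidates, and replicate 2 gave 14.5, the top 26.7%. At gt (giant, a bZIP gene) it lay 4001 bp upstream, with 25.3 (rank 22897, score 158). Replicate 1 gave 9.58 there (top 47.9%) and replicate 2 gave 11.2 (top 48.1%). These were the lowest best signals of the 9 genes with a candidate, at percentiles 44.1 and 34.8 of all genes. In the replicates' own lists, where other candidates were strongest, hb stood at 69.8 and 54.2 and gt at 76.4 and 68.8. In replicate 2 they were again the lowest of the 10 genes, though above the middle of all genes. The nearest peak of any gene was 21.6 kb from hb, 39.8 kb from gt and 103 kb from kni.

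Kr (Krüppel, a zinc-finger gene) could not be placed in the same way. The ranked list of both replicates had no candidate in a stretch of 94.2 kb around it on 2R, which held 4 protein-coding genes whole. Whether a filter before the ranking emptied this stretch was not tested. There were 8 stretches at least as long, this one included, on the arms other than 4 and Y. In replicate 1 a stretch of 55.9 kb around Kr was without candidates, whereas replicate 2 had 7 candidates at Kr. The strongest of these was centred 50 bp downstream of the TSS with a signal of 35.6, rank 1312 of 113872 and a score of 429, inside the bodies of Kr and of CG9380. By its best signal Kr thus came next after slp2 and h in replicate 2, and it had no value in replicate 1. Of all 13968 genes 886 (6.34%) had no candidate in the ranked list of both replicates.

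The median best signal of the 10 genes was 37.3, with Kr counted as 0, against 29.0 for all genes, and their median percentile was 76.0, with 7 of the 10 above the middle of all genes. By the gene body alone, without the nearest-TSS rule, the median percentile was 46.5, below the middle. In replicate 1 the median percentile was 73.1 and in replicate 2 it was 78.5. At least 1 candidate was found for 9 of the 10 genes in the ranked list of both replicates. The genes also had long territories, the stretch of sequence nearest to their TSSs, with a median of 18.8 kb against 4.25 kb for all genes, and a median of 21 candidates against 6. A gene with more candidates has more chances of a high one, and the part of territory length in these percentiles was not tested. Per 10 kb of territory the 10 genes had 11.8 assigned candidates and all genes had 13.5. In the value of all genes a candidate assigned to several genes counts for each of them. The 254 assignments of the 10 genes were 254 candidates, so these values do not show which density of candidates is lower. The 216 kb of territory of the 10 genes include 28.2 kb of Kr, which had no candidate in this list. The part of Kr in the value of the 10 genes was not tested.

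**Figure D3:**
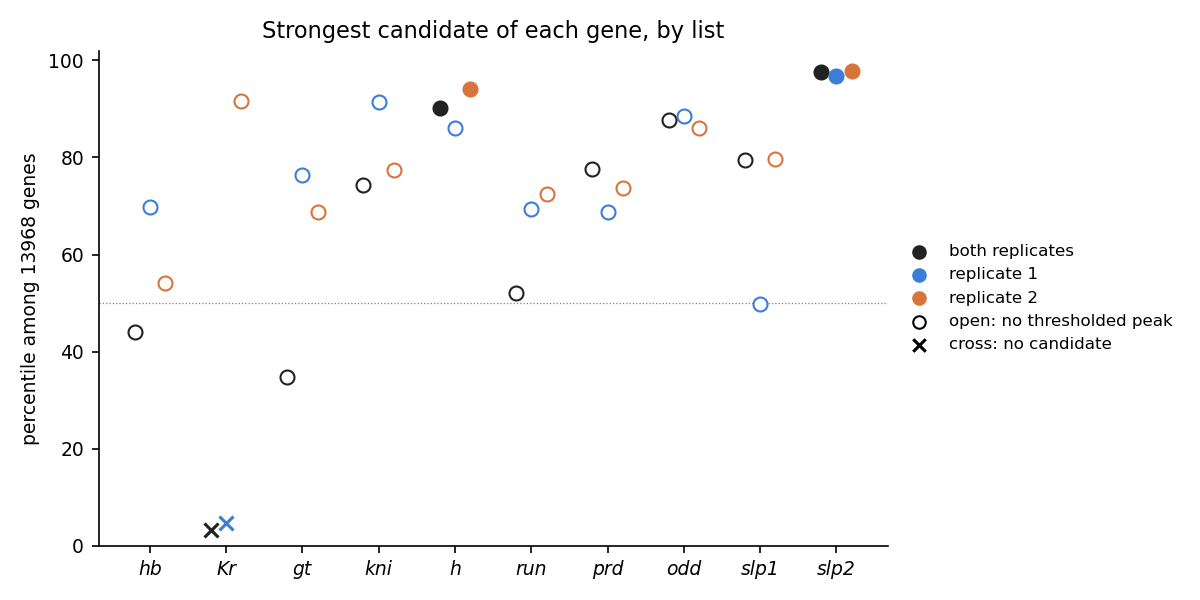
Percentile of each gene's strongest candidate among 13968 protein-coding genes in the ranked lists of both replicates, replicate 1 and replicate 2. Filled points are genes with a thresholded peak in that list (at h in the list of both replicates not the strongest candidate itself), open points are genes with none, and crosses are Kr where no candidate was listed; slp2 is at 97.7 in the list of both replicates, and gt is at 34.8.

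The replicates placed the strongest candidate of a gene at the same site in 4 of the 9 genes with a candidate in both, namely slp2, odd, prd and slp1. At hb, gt, kni, h and run the strongest candidates of the replicates did not overlap. At gt the strongest was 0.351 kb from the TSS in replicate 1 (18.9) and 6.50 kb from it in replicate 2 (22.0). The gap genes with candidates in both replicates were all 3 among the non-overlapping ones, beside the pair-rule genes h and run. The share of all protein-coding genes with overlapping strongest candidates was not computed. Whether the segmentation genes, or the gap genes among them, differ from other genes in this was therefore not tested. The part of the number of candidates per gene was not tested either.

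Candidates of the segmentation genes, like all candidates, lay mostly away from promoters. Of 254 candidates 17 were within 500 bp of a TSS of their gene (6.69%), 30 were elsewhere in the gene body, 81 were upstream and 126 downstream. Of all 145057 candidates on the arms, 13.0% were within 500 bp of the TSS of any protein-coding gene. This is a wider measure, since it does not ask for a TSS of the gene that a candidate was assigned to. The 10 genes had longer territories, with a median of 18.8 kb against 4.25 kb. The parts of territory length and of the wider measure in the difference between these shares were not tested. Among 252 candidates of the 10 genes outside the thresholded list, windows within 100 bp of the summit, read on both strands, held the Zelda sequence CAGGTAG in 3.57%, against 1.30% of all such candidates. TAATCC, the sequence of the maternal activator Bicoid, was found in 9.52% against 6.20%. For TTTATG, bound by Caudal, the shares were 19.4% and 18.0%. The ETS core CGGAA was at 29.4% against 30.4%. Its longer form CCGGAAGT, which contains the core, was at 0.794% (2 windows) against 0.502%, and GAGAGAG, bound by the GAGA factor Trl, was at 3.17% against 2.79%. These shares were not tested: candidates of 1 gene share its locus, and a match of letters is no measured site.

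Other genes of the segmentation system were taken from lists by role. Of these 44 genes 14 had a peak in the list of both replicates (31.8%, where all genes gave 10.4%). The part of gene length or territory length in this share was not tested. Cofactors and chromatin partners of the segmentation factors led, with 5 of 8. Trl had a signal of 206 (its nearest TSS is tied with CG42507) and gro, which encodes Groucho, the corepressor of the h product, had 158 at 112 bp from its TSS. Both were in the lists of both replicates. The nuclear receptor gene ftz-f1 had 83.5, the corepressor gene CtBP 63.9 and the Sox gene D 51.6. Neither CtBP nor D had a peak in the conservative list or in either replicate's own list. Of the 8 cofactors 3 had a peak in the conservative list, 2 in that of replicate 1 and 3 in that of replicate 2.

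Among segment polarity genes, which act after the pair-rule genes, 4 of 9 had a peak. Among them were nkd (81.8), an antagonist of Wingless signalling, wg itself (58.8, the strongest of 4 peaks), and inv (53.7), a homeobox neighbour of en. The gene inv had no peak in the conservative list or in either replicate's own list. In the list of replicate 1, 0 of the 9 genes had a peak. Of the maternal genes 3 of 8 had a peak. The strongest were cad (72.9), 156 bp from its TSS, and bcd (55.4), 153 bp from its TSS. In the list of replicate 1 neither had a peak. In that of replicate 2 only cad had one, and in the conservative list only bcd did. Of 7 terminal and head gap genes croc had a peak (78.9), and 0 of the 3 other pair-rule genes had one, whose strongest candidates were 44.8 at opa, 35.2 at eve and 29.1 at ftz. Of 9 genes related in sequence to the members or their families only bowl (52.0), a relative of odd, had one, in its gene body and nearer to the TSS of CG31960. By the nearest TSS alone bowl and 1 maternal gene, whose peak lay 58663 bp from its TSS, were lost. By that rule 12 of the 44 genes had a peak, against 9.6% of all genes. Fewer of the 44 were named by the other lists, 8 in the conservative list and 3 and 8 in those of replicates 1 and 2. The role lists were chosen with earlier results of these data known, and their shares were not tested against those of the gap and pair-rule genes.

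**Figure D4:**
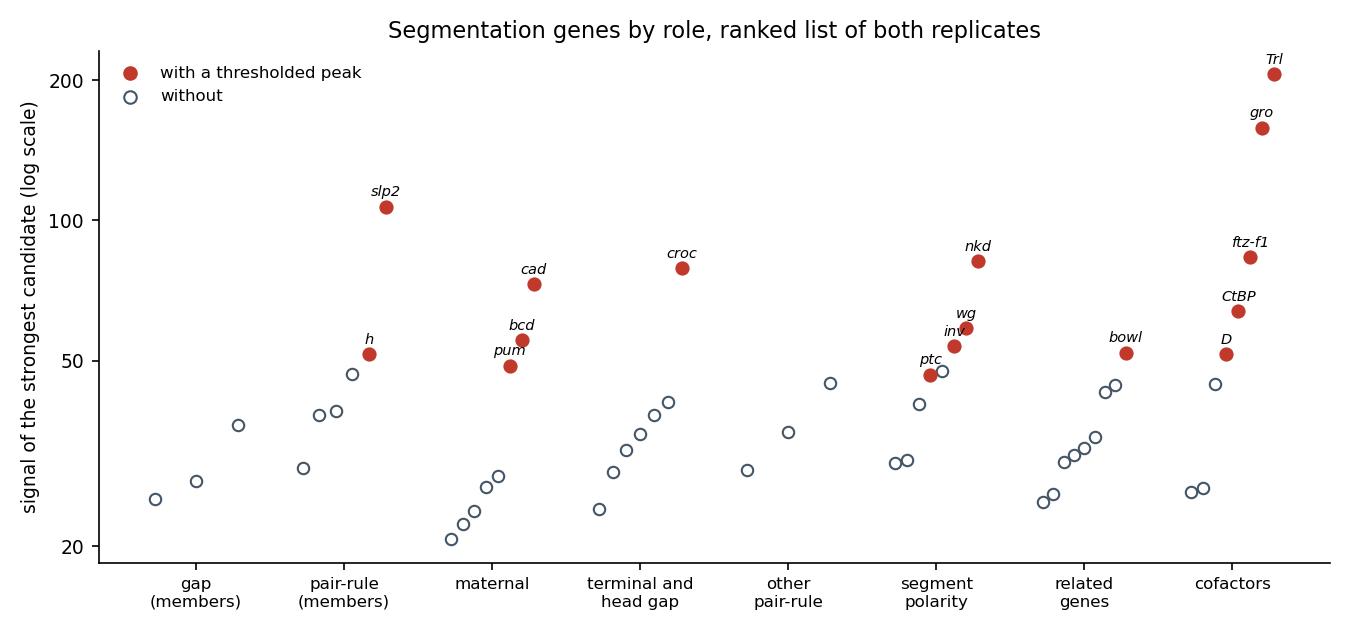
Signal of the strongest candidate of each segmentation gene in the ranked list of both replicates, on a log scale, by role. Red points with names are genes with a thresholded peak (plotted, as for all, at the strongest candidate, which for h is the promoter), and open points are genes without; the gap genes have none, slp2 is at 107 and Trl at 206, and Kr and ci, which had no candidate, are left out.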

How the data were processed

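ChIP-seq of aop-eGFP was measured in 2 biological replicates of whole embryos. Per the labels the chromatin was sonicated to fragments of 200 to 800 bp. The deposited peak lists are on dm6, and per the text files deposited with each library they were ranked by the IDR procedure and thresholded, from 1 replicate's alignment or from both, with 1 further shared file. Aligner and peak caller: not given in the sources used here. Column 7 was used as the authors' signal, column 5 as their deposited rank score, and column 12 of the ranked lists as the deposited −log10 of the global IDR. The stricter threshold, a global IDR of at most 0.001, was taken from column 12, since column 9, which had been planned, does not hold that value.

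Coordinates are 1-based. Candidates ended inside the arms of the Release 6 genome (RefSeq), the source of all sequences, and gene models are from Ensembl release 115. Peaks off the 7 arms (33) were left out. Of 54 symbols 2 were replaced (h by hry, nos by nanos). A gene's percentile is that of its strongest candidate among all genes, with 0 where there was none. All 10 members were named, with every thresholded peak and the strongest candidate of each. Of other segmentation genes at most the 12 strongest with a peak were to be named; opa, eve, ftz and ci were named beyond this rule after their values were seen. No test was made, because there is 1 group and the members and lists were chosen with earlier results of these data known. Assignment was tested on simulated summits. Python 3.11.15, pandas 2.3.3 and numpy 2.4.6 were used.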

Additional observations from a re-analysis of the deposited data

How the results depend on the processing

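With 1 group of 2 replicates and no read counts, depth and its precision are unknown, and intervals of single values could not be given. The count of genes with a peak was 2, and the number of their peaks was 2. Both were 3 in the conservative list and 2 with assignment by the nearest TSS alone or by the peak interval in place of the summit. Both fell to 1, slp2, at a global IDR of at most 0.001 (4.63% of all genes) and among peaks at or above the median signal (5.85%), and to 0 by the gene body alone (5.51%), since all these peaks are intergenic. Leaving out a replicate gave 1 to 2 for both. In the list of replicate 1 the count of 1 became 0 at the stricter IDR, above the median signal and by the gene body alone. In that of replicate 2 the count of 2 became 1, 1 and 0. The 14 other segmentation genes became 8 in the conservative list, 6 at the stricter IDR, 6 above the median signal, 9 by the gene body alone, 12 by the nearest TSS alone and 3 to 8 with 1 replicate left out. The median percentile of 76.0 became 46.5 by the gene body alone and 73.1 to 78.5 with 1 replicate left out. The ETS core stood in 1 of the 2 peaks within 50, 100 and 250 bp. Of the 2 peaks 1 was in both replicates' lists at an overlap of 1 bp or of 0.5 of the peak. The same share over all peaks is not given here. The cause of the changes other than those by construction was not tested.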
